A study of Mus musculus with 8 samples.

Results

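Skipped exons whose length is divisible by 3 were examined in iGBs, splenic mouse B cells (C57BL6/J) grown for 4 days with 1 ng/mL IL-4 on 40LB fibroblasts that express CD40L and BAFF. Elutriation was used to part them from the feeder layer before RNA was taken. Prmt5-null iGBs had the genotype PRMT5 FF Cgamma1-cre, with floxed Prmt5 alleles, control iGBs carried the same Cgamma1-cre recombinase without them, and each genotype had 4 RNA-seq libraries from 4 mice. Cgamma1-cre acts in activated B cells. The study ran 2 experiments, and no label ties a library to either. The members were all exons of the deposited skipped exon (SE) table whose length could be divided by 3, which gave 382 of 913 exons, or 41.8% (95% Wilson interval 38.7 to 45.1), in 382 genes. That table held 1 event per gene, and its events had been chosen by the authors from the same contrast of Prmt5-null against control inclusion. Differences in inclusion are therefore described below without a test.

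PRMT5 transfers methyl groups to arginines of proteins, and among its best known substrates are Sm proteins, which form the core of the small nuclear ribonucleoproteins of the spliceosome. Skipping an exon of a length divisible by 3 leaves the downstream codons in their reading frame, so that the protein loses a run of residues. Skipping of any other coding exon shifts the frame, commonly toward a premature stop codon, and such transcripts can be removed by nonsense-mediated decay. Frame-keeping exons are for that reason often the ones through which a gene makes several protein isoforms.

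Prmt5 itself had 1291, 1994, 1060 and 1808 normalised read counts in the 4 Prmt5-null libraries and 13087, 11084, 11657 and 11267 in the 4 control libraries. The genotypes did not overlap, at 1538 ± 436 against 11774 ± 908 normalised counts (SD, n = 4 each, exact two-sided permutation p = 0.0286, the smallest that 4 against 4 can give). Reads on genes ranged from 36731721 to 50366174 per library. B-lineage identity genes summed to between 439164 and 501837 normalised counts in Prmt5-null and between 494337 and 542453 in control libraries. Of their 17 tested entries 8 had a log2 fold above 0, with 1 called higher and 1 lower. Over all 16250 genes tested 6.48% were called in either direction. All 18 of the 18 tested markers of fibroblasts, the feeder cell type, had a fold above 0 on the log2 scale in Prmt5-null iGBs, and 4 were called higher. Their summed level ran from 8792 to 15602 normalised counts in Prmt5-null and from 5978 to 10122 in control libraries, and none of these markers was at 0. Myeloid markers summed to between 2494 and 4017 normalised counts in Prmt5-null and between 1506 and 2078 in control libraries, with 4 of 6 tested markers above 0 on the log2 scale, 2 called higher, and S100a8 and S100a9 at 0 in every library. T cell markers summed to between 883 and 1124 in Prmt5-null and between 1209 and 1344 in control libraries, with 2 of 6 above 0 on that scale, 1 called higher and 1 lower, and Cd3e at 0 in every library. No fibroblast, T cell or myeloid marker held a frame-keeping skipped exon, and the part of these markers' RNA in the results below was not tested.

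The exons that moved most among those with enough reads are shown first, because their sequence and position are what the inclusion levels refer to. They are the exons with the largest falls and rises among 180 members that had at least 20 reads in each of the 8 libraries and whose 4 levels of each genotype did not overlap, together with those of Kat5 and Mdm4, whose splicing the study names. Each sequence is the exon on its transcript strand, read from GENCODE transcripts of the GRCm38 build. Capitals mark the last 3 bases, which lie against the 5′ splice site where U1 snRNA pairs. The exons with the largest falls that can be shown are these 7.
Stk16, chr1:75213133-75213228, plus strand: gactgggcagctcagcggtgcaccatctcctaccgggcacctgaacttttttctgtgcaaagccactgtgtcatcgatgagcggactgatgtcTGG
Dnajc4, chr19:6989423-6989587, minus strand: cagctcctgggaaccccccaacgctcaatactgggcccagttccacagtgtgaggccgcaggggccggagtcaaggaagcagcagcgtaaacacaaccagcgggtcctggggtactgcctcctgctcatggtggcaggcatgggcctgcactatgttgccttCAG
Tspan32, chr7:143017201-143017284, plus strand: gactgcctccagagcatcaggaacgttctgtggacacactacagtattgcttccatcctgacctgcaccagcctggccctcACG
Akap9, chr5:3954397-3954450, plus strand: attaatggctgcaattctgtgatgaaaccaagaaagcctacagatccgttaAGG
Med25, chr7:44880567-44880638, minus strand: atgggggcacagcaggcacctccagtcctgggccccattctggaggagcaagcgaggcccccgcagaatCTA
Exoc1, chr5:76557819-76557863, plus strand: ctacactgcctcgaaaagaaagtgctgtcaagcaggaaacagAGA
Tmpo, chr10:91153278-91153397, minus strand: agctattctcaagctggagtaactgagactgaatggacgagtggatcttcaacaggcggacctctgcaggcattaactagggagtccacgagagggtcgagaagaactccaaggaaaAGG

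The exons with the largest rises that can be shown are the next 7, with the capitals of Ccnl2 marking the first in-frame stop codon of an exon that no annotated coding transcript holds, which begins at base 20 of the exon.
Azin2, chr4:128959784-128959957, minus strand: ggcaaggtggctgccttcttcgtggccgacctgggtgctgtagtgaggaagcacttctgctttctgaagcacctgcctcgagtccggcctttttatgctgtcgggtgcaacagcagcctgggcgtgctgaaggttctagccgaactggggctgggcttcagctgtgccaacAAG
Fance, chr17:28317158-28317223, plus strand: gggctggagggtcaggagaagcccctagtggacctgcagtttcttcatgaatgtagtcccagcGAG
Thap3, chr4:151983635-151983736, minus strand: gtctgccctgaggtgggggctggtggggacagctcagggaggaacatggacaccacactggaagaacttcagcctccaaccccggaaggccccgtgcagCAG
Tnrc6c, chr11:117741669-117741818, plus strand: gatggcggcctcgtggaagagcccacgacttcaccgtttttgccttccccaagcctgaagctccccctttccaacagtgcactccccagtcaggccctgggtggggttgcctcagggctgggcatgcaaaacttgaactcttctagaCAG
Ccnl2, chr4:155818539-155818664, plus strand: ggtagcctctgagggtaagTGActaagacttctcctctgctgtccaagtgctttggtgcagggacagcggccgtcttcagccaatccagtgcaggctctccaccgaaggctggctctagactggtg
Chchd5, chr2:129130178-129130318, plus strand: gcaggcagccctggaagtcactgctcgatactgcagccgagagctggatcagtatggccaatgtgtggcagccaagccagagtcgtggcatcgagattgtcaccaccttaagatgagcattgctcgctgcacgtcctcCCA
Med23, chr10:24883204-24883221, plus strand: accttgaacattgctCAG

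The exons of the genes that the study names were these.
Kat5, chr19:5608802-5608957, minus strand: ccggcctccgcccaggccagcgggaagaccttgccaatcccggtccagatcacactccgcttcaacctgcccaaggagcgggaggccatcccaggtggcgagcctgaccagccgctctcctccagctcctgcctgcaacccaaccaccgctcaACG
Mdm4, chr1:133004654-133004692, minus strand: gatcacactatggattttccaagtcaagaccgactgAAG

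Of the 15 exons shown with their last 3 bases, 12 ended in G and 7 in AG. Over all coding members the last base was G in 160 of 201 exons with lower inclusion in Prmt5-null iGBs (79.6%) and in 71 of 91 with higher inclusion (78.0%). The other frame-keeping coding exons of the same genes ended in G in 80.4% of 2209 exons. An AG end was present in 55.7%, 51.6% and 58.4% of these 3 sets. Median GC content was 50.4% for exons with lower inclusion, 51.7% for those with higher inclusion and 50% for the other exons, and median length was 96, 111 and 123 bases. Intronic bases of the splice sites were not analysed here.

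Inclusion was lower in Prmt5-null iGBs for 252 of the 382 exons, or 66.0% (95% Wilson interval 61.1 to 70.5), and higher for 130. The interval covers counting error only, and the exons are not replicates of a condition. Of the 531 frame-shifting skipped exons deposited with them, 363 were lower, or 68.4% (64.3 to 72.2). The median difference in inclusion level, Prmt5-null minus control, was −0.12 for frame-keeping exons and −0.13 for frame-shifting exons. Exons with lower inclusion had a median difference of −0.15, with a range from −0.69 to −0.0088. For exons with higher inclusion it was 0.16, with a range from 0.0033 to 0.59. Falls and rises of inclusion below are such differences between deposited means and rest on no test.

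**Figure D1:**
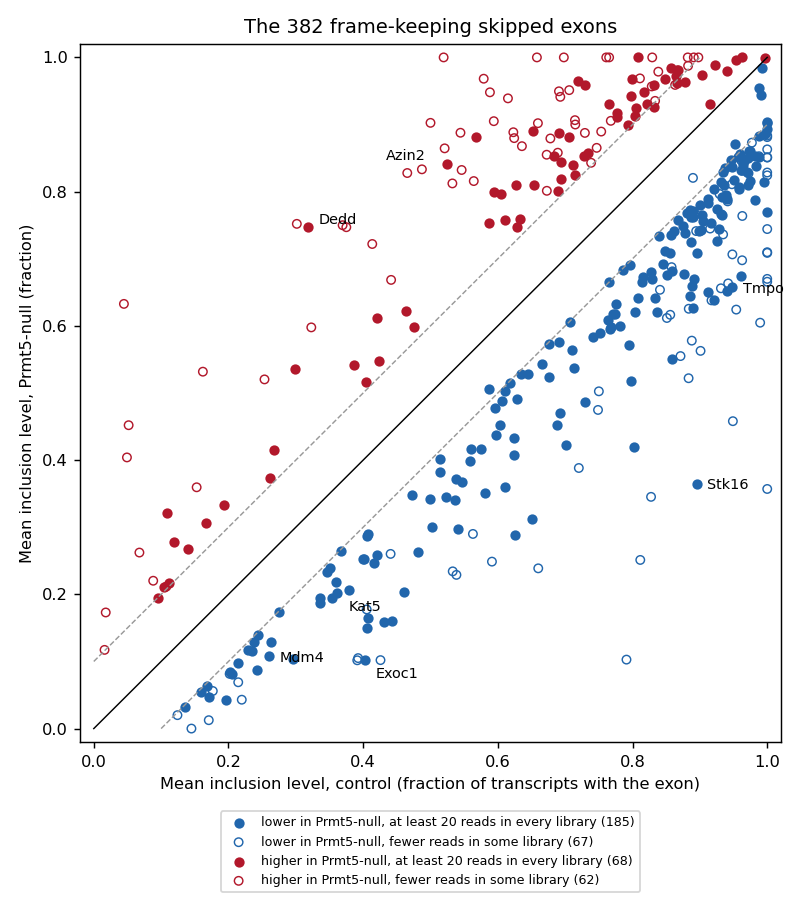
Mean inclusion level of each of the 382 frame-keeping skipped exons in control (x axis) and Prmt5-null iGBs (y axis), both as a fraction. Filled points had at least 20 reads in every library, open points had fewer in some library, the solid line marks equal levels and the dashed lines a difference of 0.1; 252 exons lie below the solid line and 130 above it.

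The exons differed in how much they were used before the loss of Prmt5. Among exons with lower inclusion, 89 of 252 had a control level above 0.9, 110 had one between 0.5 and 0.9, and 53 had one of 0.5 or less. Only 7 of the 130 exons with higher inclusion had a control level above 0.9, 85 lay between 0.5 and 0.9, and 38 were at 0.5 or less, 8 of them at 0.1 or less. A level near 1 leaves room mainly for a fall. The major form changed from inclusion to skipping or the reverse, with the mean level crossing 0.5, for 60 of the 382 exons, 40 of them with lower and 20 with higher inclusion. In control iGBs the median level was 0.757 for frame-keeping and 0.836 for frame-shifting exons, and a control level above 0.9 was found for 25.1% and 35.4% of them.

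Reads behind the levels varied widely, from 14 to 35892 per exon over the 8 libraries, with a median of 492.5. At least 20 reads in every library were present for 253 members, 185 with lower and 68 with higher inclusion. The 4 levels of each genotype lay apart for 217 of the 382 exons (56.8%), against 49.3% of all 913 skipped exons, a difference from which nothing is read because the events were selected on these values. By place in the deposited lists, which do not name their libraries, the median level of exons with lower inclusion was between 0.810 and 0.853 in the 4 control values and between 0.596 and 0.625 in the 4 Prmt5-null values. For exons with higher inclusion these medians ran from 0.654 to 0.696 in control and from 0.879 to 0.901 in Prmt5-null iGBs. No place in a list stood apart from the other three by as much as the genotypes differed.

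The study kept events with a difference of at least 0.1. Just inside this limit were Mapkap1, an mTORC2 subunit, from 0.947 in control to 0.847 in Prmt5-null, and Fam118b, from 0.766 to 0.666. Just outside were Tmem176b, at 0.0948 in control and 0.194 in Prmt5-null, and Cpped1, at 1.00 and 0.903. In all, 20 members were under the limit when reads on the exon body were counted with junction reads. By junction reads alone the difference was −0.134 for Cpped1 and 0.0995 for Tmem176b, the latter still under the limit.

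The places of the exons in their transcripts were read from the annotation. Of the 382 exons, 292 (76.4%) lay wholly in the coding part of an annotated transcript, against 322 of the 531 frame-shifting exons (60.6%). Among all coding skipped exons the frame-keeping ones made up 292 of 614, or 47.6% (43.6 to 51.5), and among 106233 annotated internal coding exons of genes with a mean above 50 normalised counts they made up 40.1%. The 5′ untranslated region held 33 members, 13 held the start and 5 the end of the coding part, and 9 lay between coding exons in no coding transcript but with an in-frame stop codon. No 3′ untranslated member was found, 4 lay between coding exons with no stop codon, and 26 were in genes or transcript parts without a coding transcript of that structure. With 91 of 130 exons with higher inclusion and 201 of 252 with lower inclusion in coding parts, both directions were mainly coding.

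Removal of the exon was then read through the annotated coding sequence. Of the 273 coding members whose transcript had an annotated ATG, 266 ended at the same stop codon without the exon and 1 at an earlier stop. For the other 6 the reading gave a later stop or none. Loss of a frame-keeping coding exon cannot bring that about in a complete annotated frame, so these 6 are not read as an effect of skipping. The start codon was not read again without the exon, so Chchd5, whose exon holds its last base, counts among the 266. For frame-shifting exons 297 of 318 met an earlier stop. The earlier stop was in Osgepl1, which encodes a tRNA-modifying enzyme, where a 72-base exon fell from 0.862 in control to 0.742 in Prmt5-null iGBs. A coding member held a median of 33 codons (quartiles 23.0 and 47.2). The junction that joins its neighbours was in the annotation for 243 of the 382 exons (63.6%, Wilson interval 58.7 to 68.3), against 276 of the 531 frame-shifting exons (52.0%, 47.7 to 56.2). Skipping of the remaining 139 frame-keeping exons was thus not an annotated form.

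Lengths ran from 18 bases, in Med23 and Trim26, to 7674 bases in Ank3, the giant exon of an ankyrin, with a median of 102. Exons of at most 30 bases numbered 15 among frame-keeping and 6 among frame-shifting exons. Length does not settle the frame where an exon has a second end: 84 members shared exactly 1 end with another annotated internal exon, and for 46, which are 12.0% of all 382 members, that other exon was of a length that changes the frame. Mdm4 was among these, since its 39-base exon is the shorter form of a 68-base exon with the same 5′ splice site.

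Among the 180 exons with at least 20 reads in each library and separate levels, the largest fall was in Stk16, a serine/threonine kinase of the Golgi. Its 96-base exon had levels of 0.962, 0.942, 0.888 and 0.788 in control and 0.370, 0.499, 0.299 and 0.292 in Prmt5-null iGBs. Separate levels were a condition for being named here, so they are not a result about this exon. Inclusion reads fell from 206 to 94 and skipping reads went from 13 to 99, and the exon encodes 32 residues from residue 188. The skipping junction was not annotated, and exons of 116 and 175 bases share an end with it. Dnajc4, a J-domain co-chaperone gene, followed with 0.9, 0.772, 0.821 and 0.715 in control and 0.438, 0.408, 0.477 and 0.356 in Prmt5-null iGBs, likewise through a junction that is not annotated.

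Tspan32, a tetraspanin of blood cells, had 0.680, 0.603, 0.589 and 0.728 in control and 0.253, 0.366, 0.328 and 0.303 in Prmt5-null iGBs for an 84-base exon. Akap9, which anchors protein kinase A at the Golgi and centrosome, had 0.586, 0.697, 0.604 and 0.612 against 0.310, 0.301, 0.230 and 0.314 for a 54-base exon. In each of these genes inclusion was the major form in control iGBs and skipping the major form in Prmt5-null iGBs, through annotated junctions.

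Med25, a Mediator subunit, held a 72-base exon with 0.913, 0.891, 0.873 and 0.760 in control and 0.608, 0.620, 0.536 and 0.437 in Prmt5-null iGBs. For Exoc1, a subunit of the exocyst that tethers vesicles, a 45-base exon had 0.384, 0.462, 0.417 and 0.345 in control and 0.142, 0.1, 0.058 and 0.107 in Prmt5-null iGBs. That exon was already the minor form in control iGBs and was on 36 inclusion against 228 skipping reads in Prmt5-null iGBs. The deepest of these exons was the 120-base exon of Tmpo, which encodes lamina-associated polypeptide 2, with 0.953, 0.954, 0.939 and 0.943 against 0.697, 0.679, 0.656 and 0.599 on at least 808 reads per library. Skipping reads of Tmpo went from 182 to 754 while inclusion reads went from 6495 to 2877. Inclusion reads thus fell by more than skipping reads rose, while the gene as a whole had a log2 fold of −0.0013. These sums were not scaled for depth, and the reason for the fall was not tested. The last of the 8 falls was in the noncoding RNA Epb41l4aos, from a mean of 0.940 to 0.651 for a 63-base exon, where no reading frame is involved.

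Under the same limits the largest rise was in Dedd, whose product carries a death effector domain. A 33-base exon of its 5′ untranslated region (chr1:171331253-171331285) had 0.411, 0.255, 0.355 and 0.25 in control and 0.655, 0.847, 0.668 and 0.817 in Prmt5-null iGBs. By these levels, on 27 to 43 reads per library, inclusion became the larger form relative to the skipping junction. An annotated 52-base exon shares an end with this exon. In an untranslated region the length of the exon has no bearing on the frame. Azin2, an antizyme inhibitor that acts on polyamine synthesis, had 0.652, 0.670, 0.410 and 0.368 in control and 0.769, 0.776, 0.885 and 0.937 in Prmt5-null iGBs, where the lowest Prmt5-null value was 0.769 and the highest control value 0.670.

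Fance, a subunit of the Fanconi anaemia core complex, held a 66-base coding exon with 0.575, 0.533, 0.574 and 0.589 in control and 1.00, 0.891, 0.847 and 0.785 in Prmt5-null iGBs. Its 61 skipping reads in control libraries compared with 11 in Prmt5-null libraries. Thap3, a THAP domain protein, went from 0.832, 0.712, 0.748 and 0.585 to 1.00, 0.965, 0.894 and 1.00. Tnrc6c, which acts in microRNA-mediated silencing, went from 0.719, 0.590, 0.633 and 0.665 to 0.942, 0.865, 0.824 and 0.933, with skipping reads at 81 in control and 33 in Prmt5-null libraries. In these 3 genes every Prmt5-null value lay above every control value, which the limits for naming them required.

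Med23, a further Mediator subunit, had the shortest of these exons, with 18 bases for 6 residues from residue 296. Its levels were 0.114, 0.077, 0.135 and 0.108 in control and 0.269, 0.413, 0.304 and 0.300 in Prmt5-null iGBs. Ccnl2 encodes cyclin L2, which is linked to splicing, and its 126-base exon had 0.224, 0.318, 0.316 and 0.338 against 0.562, 0.557, 0.463 and 0.562. This exon has a length divisible by 3 and yet would end the reading frame, at the stop codon marked above. Chchd5, a mitochondrial protein, had 0.709, 0.714, 0.814 and 0.678 against 1.00, 0.921, 1.00 and 0.915 for an exon that begins with the last base of the start codon, so that its loss would not simply shorten the protein. Of the 9 members with such an in-frame stop outside coding transcripts, 5 had higher and 4 lower inclusion in Prmt5-null iGBs, and Tia1, an RNA-binding protein, was among the 5, from 0.12 to 0.277.

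**Figure D2:**
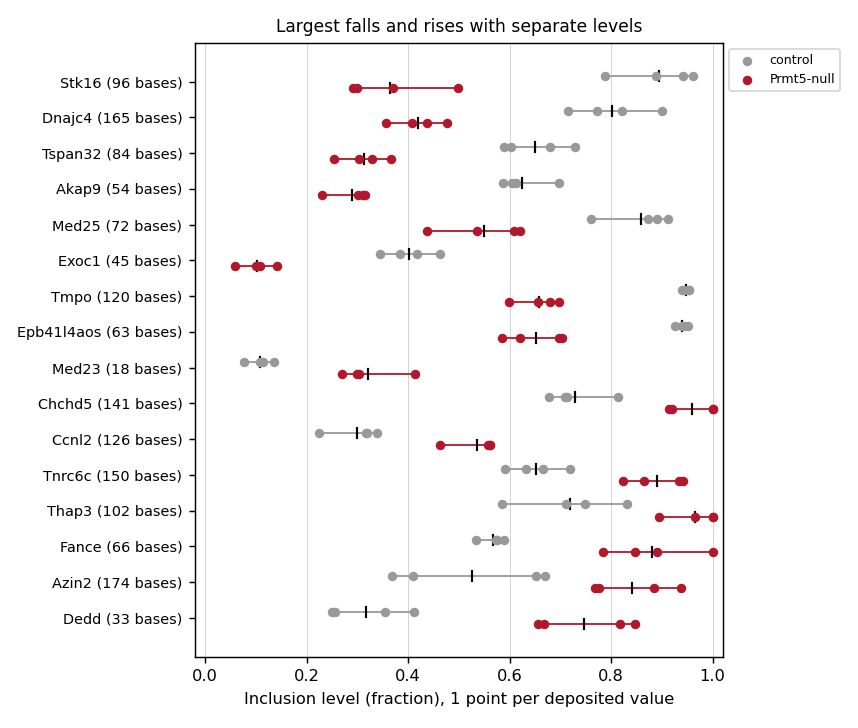
Inclusion levels (x axis, fraction) of the 8 exons with the largest falls and the 8 with the largest rises, with exon length beside each gene. Each point is a deposited value, thin lines span the 4 values of a genotype, and black ticks mark their mean; Stk16 has a mean of 0.895 in control and 0.365 in Prmt5-null, and Dedd one of 0.318 and 0.747.

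Kat5 encodes Tip60, an acetyltransferase of the DNA damage response, and its 156-base exon distinguishes the longer from the shorter of the known isoforms. Levels were 0.388, 0.402, 0.397 and 0.260 in control and 0.264, 0.199, 0.164 and 0.181 in Prmt5-null iGBs. The lowest control value and the highest Prmt5-null value overlapped by 0.260 against 0.264, while inclusion reads went from 404 to 210 and skipping reads from 301 to 363. The exon encodes 52 residues from residue 96. For Mdm4, an inhibitor of p53, the 39-base exon had 0.287, 0.341, 0.251 and 0.163 in control and 0.121, 0.081, 0.128 and 0.101 in Prmt5-null iGBs. The annotation holds that exon only in a transcript outside the protein-coding class, and skipping reads went from 664 to 1289. As given above, a 68-base exon ends at the same 5′ splice site. Reads on the part that both forms share cannot be assigned to either, so the levels are not those of the 39-base form alone. The study reports exon exclusions in many Mdm4 transcripts, and which form they concern was not examined here.

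Genes that act in the B cell, in DNA repair, in chromatin, in splicing and in the cell cycle were then read from lists. The lists were chosen with earlier results of these data known, so no enrichment is read from the shares below. The DNA repair list had 9 members among 136 genes with a mean above 50 normalised counts (6.62%), the chromatin list 12 of 154 (7.79%), the splicing list 16 of 244 (6.56%), the B cell and cytokine list 8 of 151 (5.30%), the cell cycle list 12 of 226 (5.31%), and the p53 and apoptosis list Mdm4 alone of 71. Over all 13300 such genes 2.87% held a member. An event can be called only where a gene has enough junction reads, and the level and exon number of the listed genes were not matched to those of other genes. Lower inclusion was found for 7 of the 9 DNA repair, 8 of the 12 chromatin, 10 of the 16 splicing and 8 of the 12 cell cycle members, and for 2 of the 8 B cell and cytokine members.

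In the DNA repair list Rif1, which guards replication and directs the choice of repair path, held a 78-base exon with 0.616, 0.666, 0.557 and 0.606 in control and 0.459, 0.258, 0.408 and 0.317 in Prmt5-null iGBs. Fancg, another subunit of the Fanconi core, had no skipping read in control libraries, with all 4 levels at 1.00, and 18 in Prmt5-null libraries, with levels of 0.737, 0.695, 0.808 and 0.838. Rad18, the ubiquitin ligase of PCNA, went from 0.463, 0.355, 0.410 and 0.376 to 0.262, 0.235, 0.256 and 0.257. In these genes, as in Fance, the genotypes did not overlap, and of the 4 Fance alone had the higher level in Prmt5-null iGBs.

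Among chromatin regulators Ncor1, a nuclear co-repressor, had 0.925, 1.00, 1.00 and 1.00 in control and 0.832, 0.793, 0.741 and 0.783 in Prmt5-null iGBs. Baz2b, a bromodomain protein, had mean levels of 0.742 and 0.583 for a 42-base exon of its 5′ untranslated region. Tet3, which oxidises 5-methylcytosine, had means of 0.808 in control and 0.642 in Prmt5-null iGBs, with overlapping values. Ezh2, the methyltransferase of the Polycomb complex PRC2, went from a mean of 0.691 to 0.576 on at least 258 reads per library.

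Splicing regulators were themselves alternatively spliced. Mbnl2, a regulator of alternative exons, had 0.368, 0.356, 0.453 and 0.446 in control and 0.195, 0.036, 0.225 and 0.143 in Prmt5-null iGBs for a 54-base exon. Hnrnpk, a poly(C)-binding protein, had 0.566, 0.479, 0.479 and 0.487 against 0.306, 0.362, 0.283 and 0.25. Pcbp2, of the same class of proteins, went from 0.937, 0.939, 0.915 and 0.936 to 0.762, 0.738, 0.776 and 0.789. Rbm33, an RNA-binding protein, had means of 0.598 and 0.438. In all 4 the genotypes lay apart. They did so for 14 of the 16 members of this list, 6 of the 9 DNA repair, 8 of the 12 chromatin, 5 of the 8 B cell and cytokine and 11 of the 12 cell cycle members. Beside these stand 56.8% of all members and 49.3% of all skipped exons, on values by which the events were selected.

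Ptprc encodes CD45, the phosphatase that sets the threshold of antigen receptor signalling and whose variable exons near the amino terminus give its named isoforms. A 129-base exon from residue 33 had 0.875, 0.943, 0.871 and 0.895 in control and 0.748, 0.717, 0.778 and 0.591 in Prmt5-null iGBs, on 187 skipping reads in control and 434 in Prmt5-null libraries. Ciita, the transactivator of MHC class II genes, held a 63-base exon with little spread, 0.977, 0.975, 0.967 and 0.968 against 0.823, 0.788, 0.834 and 0.794 and a skipping junction that is not annotated. Both lay apart between the genotypes. The other members of this list had a higher mean in Prmt5-null iGBs, among them Shc1, an adaptor of receptor signalling, from a mean of 0.865 to 0.972 in an exon that holds the start of the coding part, and Runx1, a transcription factor, from 0.868 to 0.981 with overlapping values. Fcer2a, the IgE receptor CD23, held a 39-base exon with means of 0.817 and 0.949.

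In the cell cycle list Max, the partner of Myc, held a 27-base exon that separates its long from its short isoform. It had 0.220, 0.281, 0.208 and 0.258 in control and 0.108, 0.094, 0.082 and 0.063 in Prmt5-null iGBs, and inclusion reads went from 195 to 66. Kif23, a kinesin of the midbody, moved the other way for a 312-base exon, with 0.441, 0.458, 0.552 and 0.401 against 0.645, 0.626, 0.609 and 0.610. Cep164, a protein of the centriole's distal appendages, had means of 0.691 and 0.887. Cdk2, the cyclin-dependent kinase of S phase, had means of 0.206 and 0.0815 for a 144-base exon. The values of these 4 genes did not overlap between the genotypes.

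**Figure D3:**
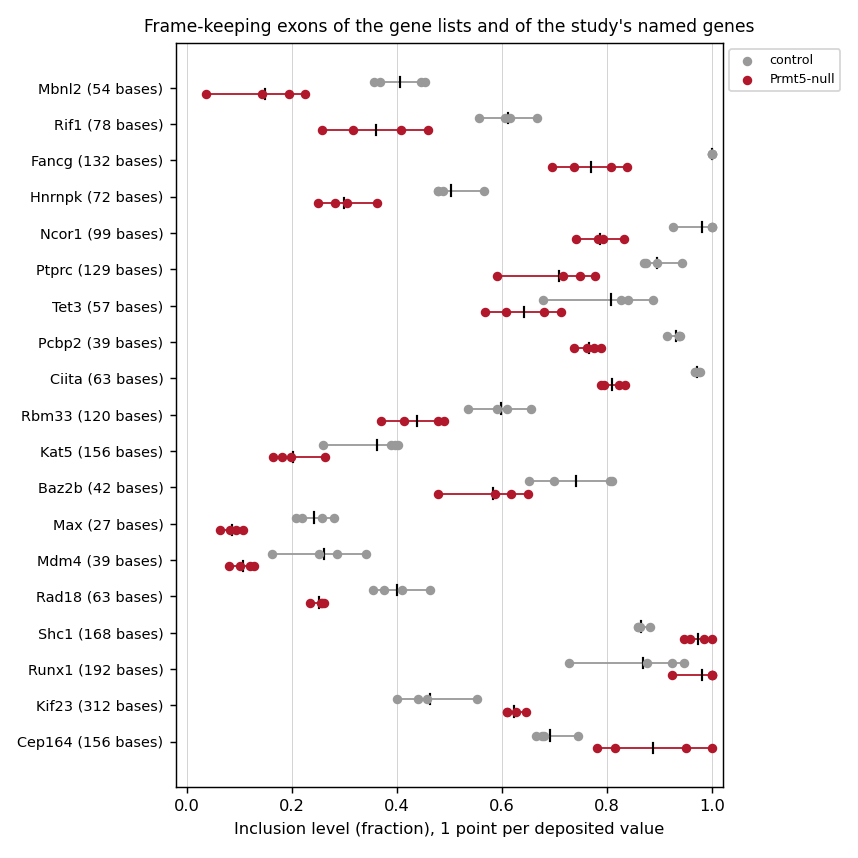
Inclusion levels (x axis, fraction) of the frame-keeping exons of the gene lists with the largest differences, with Kat5 and Mdm4. Each point is a deposited value, thin lines span the 4 values of a genotype and black ticks mark their mean; Ptprc has a mean of 0.896 in control and 0.709 in Prmt5-null, and Kif23 one of 0.463 and 0.623.

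Members also met other event types of the deposited tables in the same genes. A retained intron was listed in 26 of the 382 genes (6.81% of the members and 7.72% of the 337 retained introns), and 22 of these introns had a higher level in Prmt5-null iGBs. The study reports a preference for intron inclusion in Prmt5-deficient cells generally, so this direction is not read as a trait of these genes. Retained introns were listed for 2.53% of the 13300 genes with a mean above 50 normalised counts and in 9.79% of the genes with a frame-shifting skipped exon. Mutually exclusive exons were listed in 71 genes (18.6% of the members and 20.3% of the 350 events), and in 36 of them the member was itself one of the exclusive exons, so these are not separate events. They were listed for 2.63% of the 13300 genes and in 14.9% of the genes with a frame-shifting exon. Alternative 5′ and 3′ splice sites were listed in 18 and 17 of the genes (4.71% and 4.45% of the members), beside 1.43% and 0.962% of the 13300 genes and 7.34% and 4.33% of the genes with a frame-shifting exon. Detection of any event needs junction reads, and the levels of these genes were not matched.

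Whether the level of the gene moved with the exon was a question that the gene table could answer without the inclusion values. Genotypes were compared with limma on log2(normalised count + 1) over 16250 genes with a mean of at least 10 counts, with calls where the adjusted p was under 0.05 and the genotypes differed 1.5-fold or more. In bulk RNA, fewer cells of a type and less RNA per cell cannot be told apart. Of the 382 genes 23 were called (6.02%), 8 higher and 15 lower in Prmt5-null iGBs, against 6.48% of all genes tested. All 382 had a mean above 50 counts, where 6.31% of 13300 genes were called, 3.14% higher and 3.17% lower. Called shares of the members were 2.09% higher and 3.93% lower, so their share was near the background. The median log2 fold of the members was −0.017, beside −0.0049 over genes with a mean above 50.

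By direction, 17 of the 252 genes with lower inclusion were called (6 higher and 11 lower) and 6 of the 130 with higher inclusion (2 higher and 4 lower). The median log2 fold was −0.016 for the former and −0.026 for the latter. Genes with a frame-shifting exon of lower inclusion had a median of −0.093, and 32 of 363 were called, 6 higher and 26 lower (7.16% lower, against 4.37% of the genes with a frame-keeping exon of lower inclusion). Over all genes with a mean above 50 counts, 3.17% were called lower. The frame-shifting set had a lower median gene level than the frame-keeping set, 1309 against 2261 normalised counts. At least 20 reads in each library were present for 58.1% of its exons, against 73.4%. The difference between the frames was not tested. Calls were more frequent where the exon had few reads, at 16 of 129 genes with under 20 reads in some library (12.4%), against 7 of 253 others (2.77%). These 129 genes had a median level of 858 normalised counts and the others 2658, and the part of this in the calls was not tested.

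**Figure D4:**
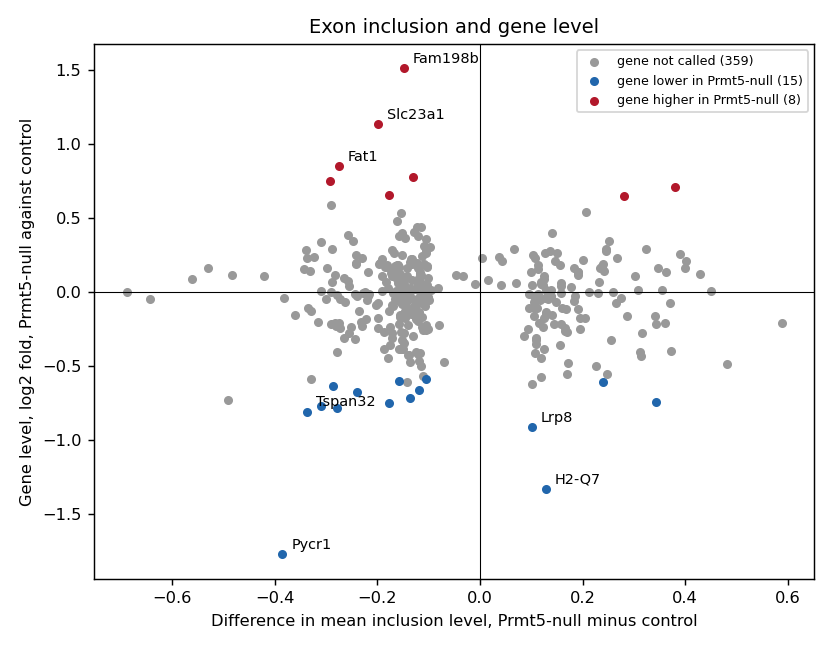
Difference in mean inclusion level (x axis, Prmt5-null minus control) and log2 fold of the gene level (y axis) for the 382 genes with a frame-keeping skipped exon, coloured by the gene's limma call. Of these genes 359 were not called, 15 were lower and 8 higher in Prmt5-null, and called genes lie on both sides of the vertical line.

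Among the 18 genes of the exons with the largest changes and of Kat5 and Mdm4, Tspan32 alone was called at the gene level. These 18 exons had at least 20 reads in each library, and 2.77% of the 253 member genes at that depth were called. Among the 81 members with a difference of at least 0.25 at any depth, 10 were called (12.3%), against 6.31% of genes with a mean above 50. Tspan32 had 990, 956, 902 and 775 normalised counts in Prmt5-null and 1359, 1757, 1848 and 1414 in control libraries, a log2 fold of −0.81 ± 0.12 (SE, limma adjusted p = 0.00118). Its skipped form thus gained share while the gene as a whole fell. Stk16 had a log2 fold of 0.16, Tmpo of −0.0013, Kat5 of −0.013 and Mdm4 of 0.39 (limma adjusted p = 0.342, 0.993, 0.939 and 0.115). Fance and Rad18 passed the p threshold but not the fold limit, at −0.43 and −0.35 on the log2 scale (limma adjusted p = 0.0267 and 0.0184).

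The largest fall among member genes was in Pycr1, an enzyme of proline synthesis, with 94.4, 96.0, 113 and 121 normalised counts in Prmt5-null and 494, 333, 352 and 297 in control libraries. The log2 fold was −1.77 ± 0.17 (SE, limma adjusted p = 0.000123), and the exon, which holds the start of the coding part, had means of 0.99 in control and 0.605 in Prmt5-null iGBs with as few as 4 reads in a library. H2-Q7, a class Ib MHC gene, fell by 1.33 ± 0.10 on the log2 scale (SE, limma adjusted p = 2.5e-05), from 1754 ± 198 to 694 ± 59.8 normalised counts (SD, n = 4 each). This gene has near-identical relatives among the Qa genes, so that both its level and its exon are uncertain. Lrp8, a lipoprotein receptor, fell from 877 ± 77.5 to 469 ± 87.4, and Ssbp4, a DNA-binding protein, from 1144 ± 121 to 681 ± 185 normalised counts (SD, n = 4 each, limma adjusted p = 0.00101 and 0.00934).

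Rises at the gene level were led by Fam198b, a Golgi membrane protein, with 281, 227, 238 and 250 normalised counts in Prmt5-null and 76.5, 107, 73.5 and 93.6 in control libraries (log2 fold 1.51 ± 0.16, SE, limma adjusted p = 0.000177). Slc23a1, a vitamin C transporter, rose from 204 ± 21.6 to 469 ± 176 and Fat1, an atypical cadherin, from 541 ± 146 to 954 ± 121 normalised counts (SD, n = 4 each, limma adjusted p = 0.0048 and 0.00763). Homer3, a synaptic scaffold, rose from 477 ± 77.2 to 811 ± 76.4 (SD, n = 4 each, limma adjusted p = 0.00232). The exons of these 4 rising genes had lower mean inclusion in Prmt5-null iGBs, with overlapping values and between 3 and 23 reads in the shallowest library. For each of the 9 genes described the libraries of the genotypes did not overlap (exact two-sided permutation p = 0.0286). They were chosen as large changes among genes called on these same libraries, so this separation adds no support to the calls. The higher level of the fibroblast markers given above was measured in the same Prmt5-null libraries, and its part in these rises was not tested.

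**Figure D5:**
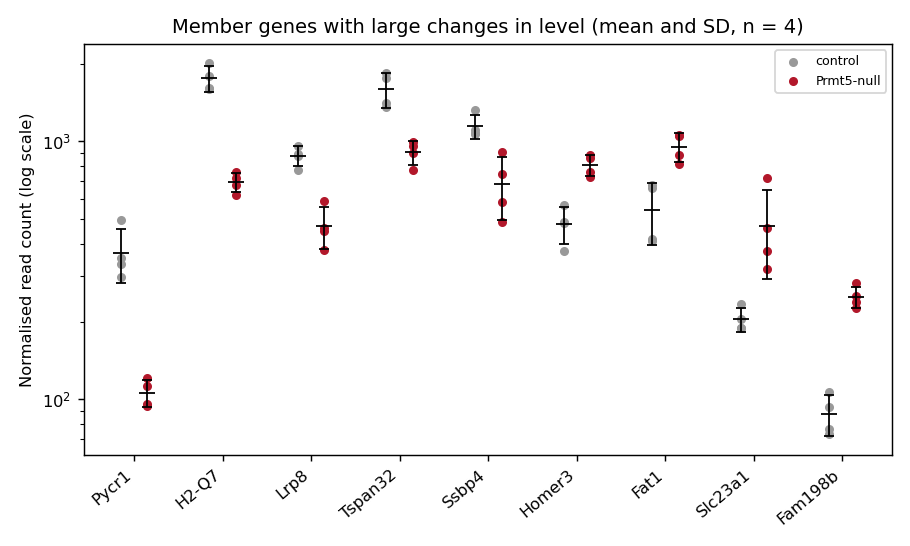
Normalised read counts (y axis, log scale) of the 5 member genes with the largest falls and of 4 among those with the largest rises. Points are libraries, horizontal ticks the mean of 4 and bars the SD; in Pycr1 all Prmt5-null libraries lie at or under 121 and all control libraries at or above 297.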

How the data were processed

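Per the labels and the study's methods, rRNA-depleted stranded libraries were read in pairs, and per the submitters' processing notes Trimmomatic 0.32, STAR 2.3.0e, featureCounts 1.4.4, DESeq2 1.14.1 and the mm10 (GRCm38) build were used. The gene table is a signal that the authors deposited, namely counts scaled with DESeq2 size factors. All values (100%) came out as whole reads, within 0.05 reads, after multiplication by 1 factor per library. The strand setting of counting is not given in the sources used here, so antisense and overlapping genes are uncertain. The splicing tables come from rMATS, which the authors ran on all 4 against 4 libraries. They hold inclusion levels and reads as lists of 4 per genotype that do not name a library, so these are printed as the authors' values with no SD. The effective lengths, treated here as a score, are the deposited numbers by which reads are divided. Columns of the authors' p-values and FDR were not used, and 0 other columns of samples were left out. The deposited inclusion difference served only to assign the lists to the genotypes. The study gives that difference as wild type against knockout. The list subtracted from was therefore read as control and the list subtracted as Prmt5-null.

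Exon length was end minus start. Places and sequences were read from GENCODE M21. limma 3.58.1 in R 4.3.3 (lmFit, eBayes with a trend, Benjamini-Hochberg) was used, with edgeR 4.0.16 and DESeq2 1.42.0 on recovered reads as alternatives, and SciPy 1.17.1, NumPy 2.4.6 and pandas 2.3.3 in Python 3.11.15 for the rest. The limma step was tested on simulated data. The exons named were those of genes the study names, the 8 largest falls and 8 largest rises with at least 20 reads in each library and no overlap, up to 4 per list, and those beside the 0.1 limit. Ezh2, Cdk2, Fcer2a, Tia1 and Osgepl1 were chosen after their values were seen, and gene levels named were the 5 largest each way among called genes, of which 1 is not reported here. Members and lists were chosen with earlier results of these data known. P-values measure the spread between these libraries. Alternatives changed the pseudocount, filter, normalization, tool, thresholds, reads and libraries.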

Additional observations from a re-analysis of the deposited data

Results flagged for a closer look

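In 10 of 98 groups of 4 values (39 exons and 10 genes, each in both genotypes) a value lay so far from the other three that the ratio of its gap to the range passed Dixon's 95% limit. Chance alone gives about 1 in 20 such groups where values are normally distributed. Inclusion levels cannot pass 1, and where all other values lie at that bound, as for Ncor1 and Runx1, the ratio is 1 by construction. Inclusion values do not name their library, so it cannot be said whether the same library was concerned.

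Among control values the Kat5 exon had a lowest value of 0.260 below the next at 0.388 (ratio 0.901), and this value was the one that overlapped the Prmt5-null values. Tmem176b had a highest value of 0.228 above the next at 0.060 (0.889), Hnrnpk 0.566 above 0.487 (0.908) and Shc1 0.882 above 0.862 (0.833). Pcbp2 had a lowest value of 0.915 below 0.936 (0.875), and Ncor1 had 0.925 with the other three at 1 (ratio 1). Among Prmt5-null values Akap9 had 0.230 below 0.301 (0.845), Ccnl2 0.463 below 0.557 (0.949) and Runx1 0.923 with the other three at 1 (ratio 1). At the gene level the highest control library of Ssbp4 had 1324 normalised counts above 1103 (0.873).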

How the results depend on the processing

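No paired analysis was possible because replicates are numbered by mouse and the genotypes share no number. Of the 382 genes 23 were called, beside 1053 of all 16250 genes tested. Without the fold limit 59 were called (21 higher and 38 lower), beside 2249 of the 16250. All other alternatives (pseudocount, filter, quantile normalization, edgeR, DESeq2, an adjusted p below 0.01 and each library left out) gave between 16 and 26. Over all genes tested, which numbered 13300 to 26696 by filter, these alternatives called between 637 and 1277. Of the 23, edgeR and DESeq2 both shared 23, and each library left out shared between 17 and 21. The 9 named genes and Prmt5 kept their direction and call in all 150 fits run for them. The share of exons with lower inclusion was 65.97%, and it rose to 73.12% for the 253 exons with at least 20 reads in each library and to 71.89% for the 217 with separate levels, since fewer exons with higher inclusion met either condition. It was 61.73% at a difference of at least 0.25, 66.05% from junction reads and 65.97% with any listed value left out. The median difference of −0.1197 became −0.273 at a difference of at least 0.25, by construction, and otherwise stayed between −0.1295 and −0.1143. All 39 named exons kept their direction. For the exons whose levels did not overlap, leaving out a listed value could not have turned it. Depth limits the levels of the 129 of 382 exons with under 20 reads in some library.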
